A study of Mus musculus with 6 samples.

Results

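The granulosa hormone and receptor genes are 10 genes that follicle cells use to make and read the signals of the ovary: Fshr, Esr2, Nr5a2, Cyp19a1, Ptgs2, Inha, Inhba, Amh, Kitl and Serpine2. They were chosen by symbol, and all 10 stand among the 24028 genes of the deposited table. The deposited libraries, 6 in all, hold RNA of fully grown oocytes with an intact germinal vesicle, 15 of them pooled from 1 mouse for each library. The 3 control libraries came from females of genotype Ring1-/-; Rnf2 f/f, and the 3 double knockout (dKO) libraries from Ring1-/-; Rnf2 f/f; Zp3-cre females. All were about 3 months old and of a mixed background of FVB, 129/Sv and C57BL/6J, with no treatment named. Ring1 and Rnf2 encode the ubiquitin ligases of Polycomb repressive complex 1. Both groups lacked Ring1, no library with intact Ring1 was measured, and effects of the Cre transgene and of losing Rnf2 cannot be told apart. The Zp3 promoter is active in growing oocytes, so the surrounding follicle cells are not the cells in which Cre is made. Those cells were stripped off by pipetting before lysis. The comparison asks whether genes typical of follicle cells differ in dKO oocytes, and whether other follicle cell transcripts differ with them.

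In the follicle, follicle stimulating hormone from the pituitary binds its receptor on granulosa cells and raises cAMP, which switches on the aromatase that makes estradiol. Granulosa cells also secrete inhibin, activin and anti-Müllerian hormone, and they make the KIT ligand that the growing oocyte reads through its own KIT receptor. The oocyte in turn steers them with GDF9 and BMP15, and after the ovulatory surge the cumulus cells make prostaglandin and a hyaluronan matrix.

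The libraries kept the marks of oocytes. The 12 oocyte markers, among them Zp1 to Zp3, Gdf9 and Bmp15, were each at 1 FPKM or more in both groups, with a summed level of 9402 to 9753 FPKM in controls and 5445 to 7656 FPKM in dKO libraries. Of these 12 markers 3 fell and 0 rose (limma, adjusted p under 0.05, and 9 and 0 at an unadjusted p under 0.05), Ooep from 1211 ± 54.8 to 605 ± 249.7 FPKM and Kit among them (SD, n = 3). Over all 11334 genes tested 7.04% fell and 14.0% rose, and at an unadjusted p under 0.05 1771 fell and 2248 rose (limma). Ooep lost its call with no filter, with quantile normalization and without dKO replicate 1 or any 1 control (0.0682 to 0.115, limma). Rnf2 stood at 53.7, 46.8 and 48.2 FPKM in the controls, against 14.8, 8.44 and 5.31 FPKM for dKO (log2 change -2.37 ± 0.30 (SE); limma adjusted p = 0.000696), and Ring1 at up to 0.240 FPKM in any library. Exons of Rnf2 overlap Trmt1l on the other strand. Absolute depth is unknown for FPKM, fragments scaled to transcript length and library size. Relative to control replicate 1, low values put depth at 0.908 and 1.02 for control replicates 2 and 3, and at 0.660, 0.807 and 1.09 for dKO replicates 1 to 3.

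Promoter windows from RefSeq (build GRCm38.p6) were found for 9 of the 10 genes. They hold 250 bases before and 50 after an annotated start, and some genes have several, which gave 12 windows. The E-box hexamer CACGTG, the same on both strands, occurred in the windows of Fshr, Ptgs2 and Esr2, or 3 of 12, against 7.15% of all 32851 windows. The bases before these starts are shown because the genes share this word and differ in their values: Fshr and Ptgs2 were low in control oocytes, and Esr2 was not. Capitals mark CACGTG and, where it occurs, the core TGACGT of the cAMP response element on either strand. Each is written 5′ to 3′ on the strand of the gene, and all of it is from the reference genome.
Fshr, chr17:89200676-89200925, minus strand: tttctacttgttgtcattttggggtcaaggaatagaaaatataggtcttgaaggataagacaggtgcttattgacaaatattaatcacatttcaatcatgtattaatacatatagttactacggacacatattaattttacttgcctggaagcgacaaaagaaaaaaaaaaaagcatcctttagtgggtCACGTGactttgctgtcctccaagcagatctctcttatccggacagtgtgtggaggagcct
Ptgs2, chr1:150099781-150100030, plus strand: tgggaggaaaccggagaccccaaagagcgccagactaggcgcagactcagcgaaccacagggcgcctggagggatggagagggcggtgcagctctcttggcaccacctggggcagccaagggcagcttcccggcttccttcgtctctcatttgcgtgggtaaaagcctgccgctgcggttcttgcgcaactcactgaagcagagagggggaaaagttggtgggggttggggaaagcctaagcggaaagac
Ptgs2 just after its annotated start, chr1:150100035-150100064, plus strand: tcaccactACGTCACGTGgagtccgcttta
Esr2, chr12:76177260-76177509, minus strand: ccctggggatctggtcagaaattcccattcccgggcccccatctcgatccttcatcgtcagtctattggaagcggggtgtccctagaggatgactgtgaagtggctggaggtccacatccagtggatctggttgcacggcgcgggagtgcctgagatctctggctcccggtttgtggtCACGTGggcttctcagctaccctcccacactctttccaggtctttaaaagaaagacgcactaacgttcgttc

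The hexamer began 61 bases before the start in Fshr and 72 before it in Esr2. In Ptgs2 it began at base 17 after the start and overlapped the TGACGT core, which began at base 13. TGACGT occurred in 7.51% of all windows and in no other window of these genes. The NR5A motif AAGGTCA, searched on both strands, was in 0 of the 12 windows, against 4.72% of all windows. The GATA word AGATAA was in the first Nr5a2 window alone, against 11.2% of all windows. The letters TATAAA were in windows of Cyp19a1, Kitl, Inhba and Nr5a2 (5 of 12), against 13.6%. These are matches of letters and no measure of binding.

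The windows differed widely in CpG content. The 250 bases before the start held 34 CpG in Serpine2, 23 in Kitl, 13 in Ptgs2, 12 in Esr2, 4 in Fshr, 4 in Inha and 3 in Inhba, against a median of 6 over all windows. Nr5a2 had 2 and 6 in its 2 windows and Cyp19a1 had 6, 3 and 2 in its 3 windows. Of the pair with the largest changes described next, Ptgs2 had more CpG than the median window and Fshr fewer.

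Fshr and Ptgs2 stood apart from the other 8 genes by the size of their change. Both were under 1 FPKM in every control library and over 9 FPKM in every dKO library. Of the 9 genes tested, 4 rose (Fshr, Ptgs2, Inhba and Nr5a2) and 0 fell, and the 9 had a median log2 change of 0.50, against -0.02 over all 11334 genes tested. Of all tested genes 21.0% were called, 14.0% higher and 7.04% lower. The groups did not overlap for 6 of the 9, with dKO above in 5 and below in 1 (Cyp19a1), against 41.5% of all tested genes. At an unadjusted p under 0.05, 4 of the 9 were higher and 1, Cyp19a1, was lower, against 2248 higher and 1771 lower of the 11334 (limma). A gene was tested if it reached 1 FPKM in at least 3 libraries. Fshr, Ptgs2 and Inhba passed through their dKO libraries alone, so they had to differ to be counted. With no filter 3 of the 10 were called higher (Fshr, Ptgs2 and Nr5a2) and 0 lower, against 9.88% and 2.68% of 20310 genes (12.6% in all). Without a filter the groups did not overlap for 6 of the 10, against 34.9% of those genes.

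**Figure D1:**
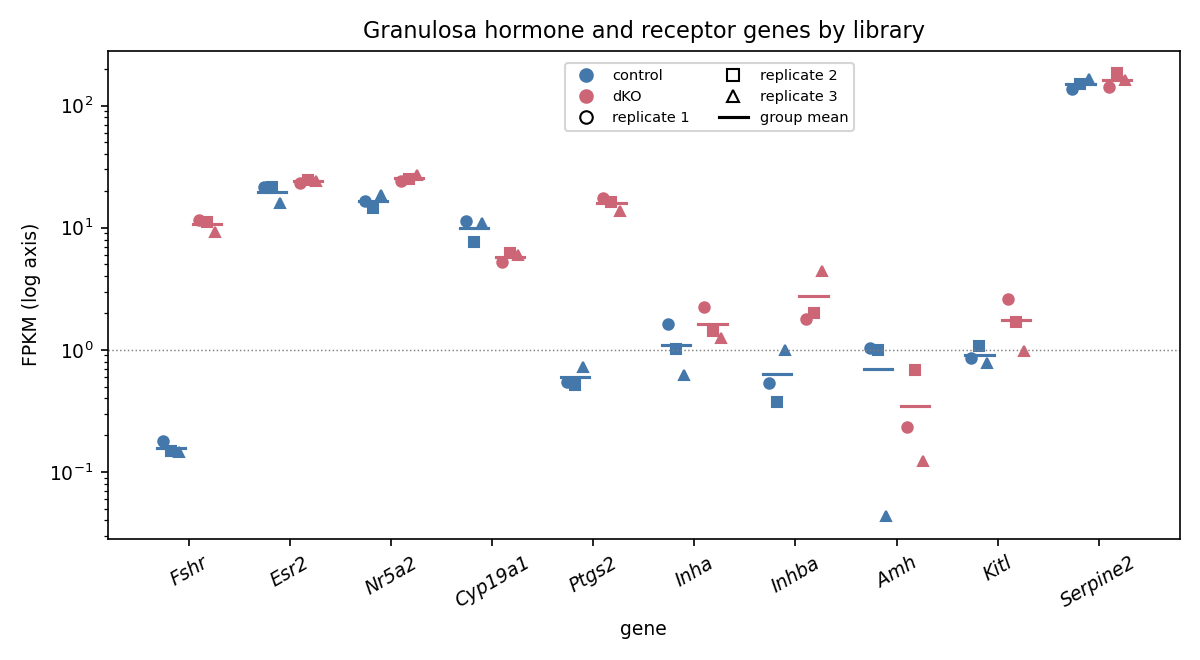
FPKM of the 10 genes on a log axis in control (blue) and dKO (red) oocytes, 1 symbol per library and a bar for each group mean (n = 3). The control values of Fshr lie between 0.146 and 0.179 FPKM and its dKO values between 9.24 and 11.6 FPKM, and Serpine2 lies above 136 FPKM in every library.

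Fshr encodes the receptor for follicle stimulating hormone, a G protein coupled receptor that marks granulosa cells in the ovary. It stood at 0.179, 0.149 and 0.146 FPKM in control replicates 1 to 3 and at 11.6, 11.1 and 9.24 FPKM in dKO replicates 1 to 3. The groups were far apart, and within each the libraries were close. The mean rose from 0.158 ± 0.0183 to 10.6 ± 1.23 FPKM (SD, n = 3), a ratio of means of 67.3. The log2 change of log2(FPKM + 1) was 3.32 ± 0.19 (SE; limma adjusted p = 1.76e-05), the 55th largest rise among the tested genes. In controls the gene lay above 43.1% of all genes in the table and in dKO oocytes above 78.8%. With a pseudocount of 0.1 in place of 1, its log2 change was 5.37, since the size of a change from so low a level depends on that constant.

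Ptgs2 encodes cyclooxygenase 2, which makes the precursor of the prostaglandins and which granulosa and cumulus cells switch on at ovulation. It stood at 0.547, 0.515 and 0.728 FPKM in the controls, against 17.6, 16.4 and 13.7 FPKM for dKO. Every dKO value was more than 10 FPKM above every control value. The mean rose from 0.597 ± 0.115 to 15.9 ± 1.99 FPKM (SD, n = 3), a ratio of 26.6. On the log2 scale that was 3.40 ± 0.20 (SE) with an adjusted p of 1.76e-05 (limma), the 47th largest rise. Leaving out any 1 library kept the log2 change of Ptgs2 between 3.33 and 3.50 and that of Fshr between 3.26 and 3.41, with adjusted p up to 0.000333 and 0.000297 (limma).

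Across the dKO libraries Fshr and Ptgs2 took the same order, highest in replicate 1 and lowest in replicate 3. The ratio of Fshr to Ptgs2 FPKM was 0.657, 0.677 and 0.674 in dKO replicates 1 to 3, and 0.327, 0.289 and 0.201 in controls. Inhba took the opposite order, and its ratio to Ptgs2 was 0.102, 0.123 and 0.324 in dKO replicates 1 to 3. Across the dKO libraries the ratio of Fshr to Ptgs2 thus stayed close, while that of Inhba to Ptgs2 varied and was highest in replicate 3. With 3 libraries per group such orders carry little weight, and what sets them was not tested.

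Of the other receptors and nuclear factors, Nr5a2 rose and Esr2 was not called. Nr5a2 encodes LRH-1, an orphan nuclear receptor that granulosa cells need for ovulation and steroid synthesis. It stood at 16.6, 14.4 and 18.5 FPKM in the controls, against 24.2, 25.0 and 27.3 FPKM for dKO, with no overlap. The log2 change of 0.60 ± 0.16 (SE) was called (limma adjusted p = 0.0288). The call was lost with median-ratio scaling (adjusted p = 0.0582) and without control replicate 1, 2 or 3 (adjusted p = 0.106, 0.152 and 0.0661), while the log2 change stayed between 0.51 and 0.68 over the removals of any 1 library.

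Esr2 encodes estrogen receptor beta, the main estrogen receptor of granulosa cells. It stood at 21.4, 21.4 and 16.1 FPKM in the controls, against 23.3, 24.6 and 24.3 FPKM for dKO. All dKO values were above all control values, as they were for 22.3% of the tested genes. The log2 change of 0.29 ± 0.17 (SE) was not past the threshold (limma adjusted p = 0.242).

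Cyp19a1 encodes aromatase, which turns androgens into estrogens, and it was the 1 gene of the 10 whose dKO values all lay below its control values. It stood at 11.3, 7.60 and 10.9 FPKM in the controls, against 5.23, 6.19 and 5.93 FPKM for dKO, with no overlap. The dKO mean was 58.2% of the control mean, and the log2 change was -0.67 ± 0.21 (SE). The adjusted p lay at the threshold, at 0.05004 (limma), and so it was not called. It was called with a pseudocount of 0.1 (0.0498), without a mean-variance trend (0.0414), with median-ratio scaling (0.0298) and with quantile normalization (0.0318), but on no removal of 1 library (0.0560 to 0.192).

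The secreted hormones were low in both groups. Inhba encodes the beta A subunit, which pairs with itself to form activin A and with the alpha subunit to form inhibin A. It stood at 0.534, 0.376 and 0.9996 FPKM in the controls, against 1.80, 2.02 and 4.44 FPKM for dKO. The groups did not overlap, and dKO replicate 3 held the highest value. The log2 change of 1.15 ± 0.28 (SE) was called (limma adjusted p = 0.0204). The call was lost with quantile normalization (log2 change 0.73, adjusted p = 0.142), with no filter (0.0712) and without control replicate 1 (0.0757) or 2 (0.0842).

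Inha encodes the alpha subunit that makes the dimer an inhibin, and it is among the most abundant granulosa transcripts. It stood at 1.63, 1.02 and 0.626 FPKM in the controls, against 2.24, 1.43 and 1.25 FPKM for dKO. The groups overlapped (log2 change 0.34 ± 0.24 (SE); limma adjusted p = 0.327), and with quantile normalization the log2 change was -0.055. Amh encodes anti-Müllerian hormone, which granulosa and cumulus cells of growing follicles secrete. It stood at 1.03, 0.999 and 0.0432 FPKM in the controls, against 0.233, 0.684 and 0.122 FPKM for dKO. Amh did not reach 1 FPKM in 3 libraries and was tested with no filter alone, where its log2 change of -0.29 was not called (adjusted p = 0.572).

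Kitl encodes the ligand of the KIT receptor. It stood at 0.858, 1.08 and 0.781 FPKM in the controls, against 2.62, 1.71 and 0.979 FPKM for dKO. The lowest dKO value lay within the control range, and the log2 change of 0.50 ± 0.24 (SE) was not past the threshold (limma adjusted p = 0.168). Without dKO replicate 3 it was 0.72 and called (0.0360).

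Serpine2 encodes protease nexin 1, an inhibitor of plasminogen activators and thrombin. It was the most abundant of the 10 genes in both groups, above 98.7% of all genes in controls. It stood at 136, 149 and 165 FPKM in the controls, against 141, 185 and 162 FPKM for dKO. The groups overlapped, and the log2 change of 0.11 ± 0.16 (SE) was not called (limma adjusted p = 0.656).

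**Figure D2:**
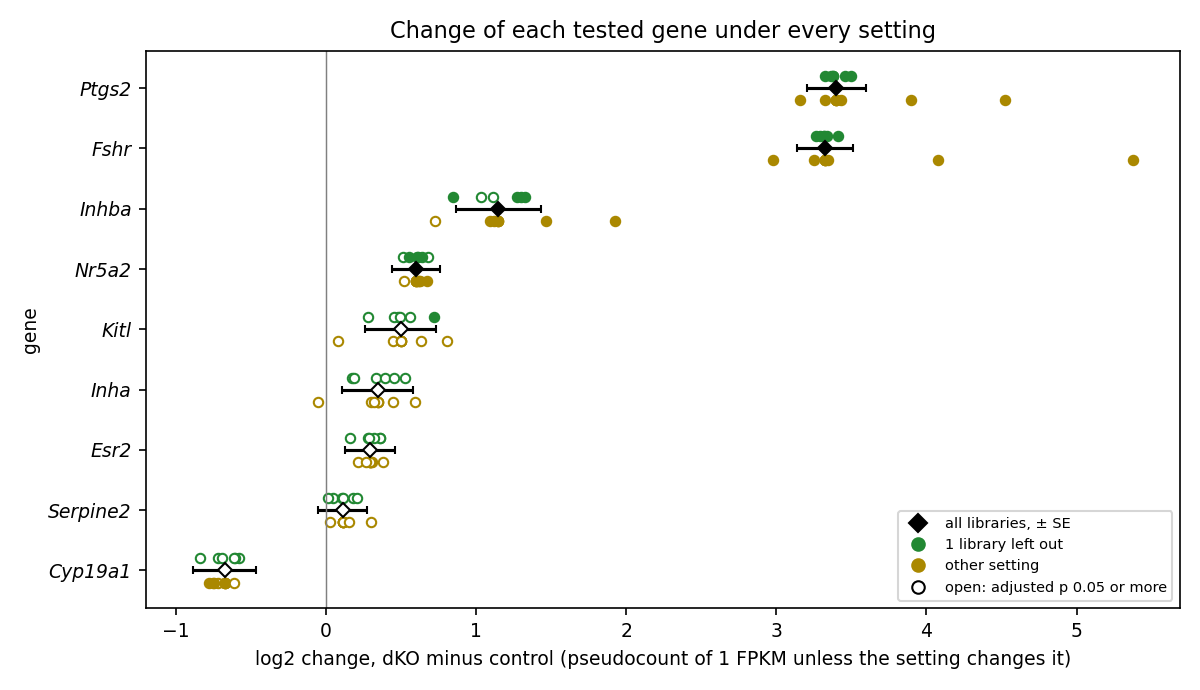
Log2 change, dKO minus control, of the 9 tested genes: black diamonds show all libraries with the SE, green circles the removal of 1 library each, and ochre circles the other settings. Filled symbols have an adjusted p under 0.05: Fshr and Ptgs2 are filled throughout, and Nr5a2, Inhba, Cyp19a1 and Kitl change between filled and open.

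FPKM is scaled to transcript length, so the levels of different genes were set side by side. The RNA was amplified, and how evenly over genes was not tested, so these orders are of FPKM alone. In controls the order of mean levels was Serpine2, Esr2, Nr5a2, Cyp19a1, Inha, Kitl, Amh, Inhba, Ptgs2 and Fshr. The ranges of neighbours overlapped between Esr2 and Nr5a2 and from Inha through Ptgs2, and the other neighbours were apart. In dKO oocytes the order was Serpine2, Nr5a2, Esr2, Ptgs2, Fshr, Cyp19a1, Inhba, Kitl, Inha and Amh, and the neighbours whose ranges overlapped were Nr5a2 with Esr2, Inhba with Kitl and Kitl with Inha. Fshr and Ptgs2 thus moved from the end of the order to places above Cyp19a1. In dKO oocytes the Fshr mean of 10.6 FPKM stood beside an Inha mean of 1.64 FPKM and an Amh mean of 0.346 FPKM.

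Other markers of granulosa and cumulus cells were mostly near 0 in both groups. Of 27 such markers, none of them among the 10 genes, 18 were below 1 FPKM in every library and 3 (Ptx3, Areg and Ereg) were at 0 in all 6. Of all 24028 genes 11153 were below 1 FPKM in every library and 3718 were at 0 in all. Of the 18 low markers 10 were on the list of cumulus expansion, a step that follows the ovulatory surge. Of the 7 tested, 3 rose (Gata4, Wt1 and Has2) and 0 fell (limma, and 3 and 0 at an unadjusted p under 0.05), with a median log2 change of 0.30. Wt1 and Has2 passed the filter through their dKO libraries alone, so they had to differ to be counted. Over all tested genes 14.0% rose and 7.04% fell. With no filter 5 of 24 were called higher, against 9.88% of 20310 genes. The summed level of the 15 granulosa markers was 75.6 to 84.0 FPKM in controls and 82.5 to 103 FPKM in dKO libraries, and that of the 12 markers of cumulus expansion was 171 to 191 FPKM and 161 to 176 FPKM. Bmpr1b, Gata4 and Rgs2 made up most of these sums. Without those 3, set aside after their values were seen, the sums were 4.39 to 5.03 and 0.232 to 1.10 FPKM in controls and 7.56 to 8.25 and 1.61 to 3.28 FPKM in dKO libraries.

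Of the 15 granulosa markers 8 were below 1 FPKM in every library, and 4 of these 8, chosen after their values were seen, are given here. Foxl2, the transcription factor that keeps granulosa identity, stood at 0.0972, 0 and 0.0817 FPKM in the controls, against 0.378, 0.586 and 0.0769 FPKM for dKO. Amhr2, the receptor of anti-Müllerian hormone, was highest at 0.0817 FPKM, in a control, and was at 0.0558, 0.0229 and 0.0170 FPKM in dKO libraries. Hsd17b1, which makes estradiol from estrone, stood at 0.0867 to 0.453 FPKM in the controls, against 0.219 to 0.323 FPKM for dKO. Slc38a3, the amino acid transporter of cumulus cells, was at 0 in all controls and at most 0.0530 FPKM in dKO libraries. These 4 markers were drawn from those already below 1 FPKM in every library, so their low level beside Fshr was fixed by the choice. Gja1, the connexin of granulosa gap junctions, did not share that low level: it stood at 0.155, 0.417 and 0.0870 FPKM in the controls, against 1.06, 0.895 and 1.19 FPKM for dKO. The groups did not overlap, and with no filter, the 1 setting that tested it, Gja1 was called higher (log2 change 0.75, limma adjusted p = 0.0194).

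Among the markers that rose, Gata4, a zinc finger factor of heart, gut and gonad, stood at 12.3, 9.80 and 11.3 FPKM in the controls, against 28.9, 29.9 and 27.4 FPKM for dKO (log2 change 1.30 ± 0.16 (SE); limma adjusted p = 0.000602). Wt1, a factor of kidney and gonad, stood at 0.0218 to 0.212 FPKM in the controls, against 1.01 to 1.48 FPKM for dKO (log2 change 1.02 ± 0.16 (SE); limma adjusted p = 0.00250). Has2, which makes the hyaluronan of the expanding cumulus, stood at 0.125 to 0.685 FPKM in the controls, against 1.13 to 1.89 FPKM for dKO (log2 change 0.94 ± 0.21 (SE); limma adjusted p = 0.0142). Wt1 and Has2 lost their calls with quantile normalization (adjusted p = 0.155 and 0.271), and Has2 also without control replicate 2 (0.0682) or 3 (0.0699). Has2 exons overlap Has2os on the other strand. Hsd3b1 (1.55 ± 0.835 and 2.08 ± 0.621 FPKM), Bmpr1b (63.6 ± 3.93 and 54.9 ± 10.6 FPKM) and Rgs2 (178 ± 10.8 and 167 ± 7.31 FPKM; SD, n = 3) were not called, and Vcan averaged 0.327 and 0.320 FPKM.

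**Figure D3:**
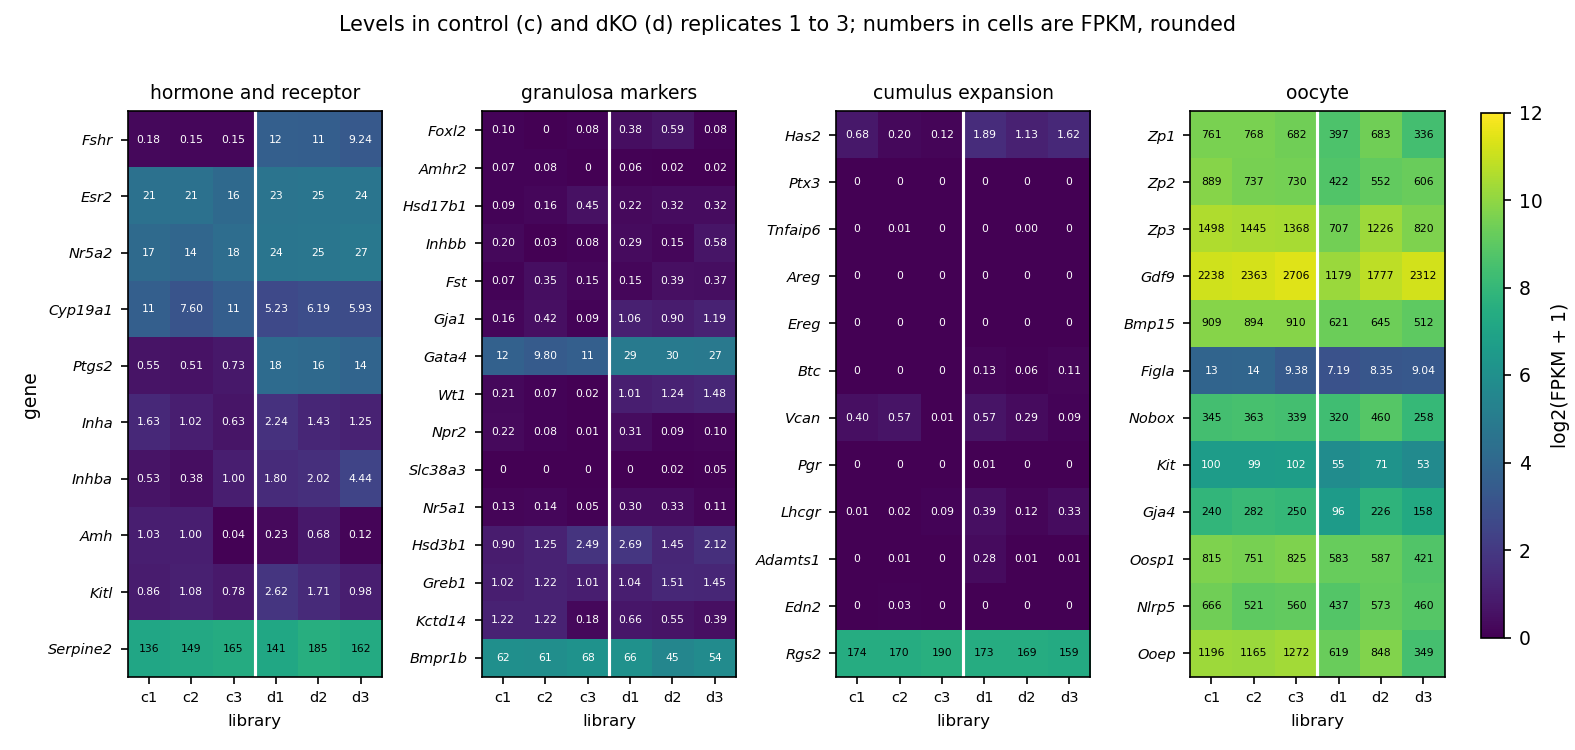
Levels as log2(FPKM + 1) of the 10 genes, 15 granulosa markers, 12 markers of cumulus expansion and 12 oocyte markers in control (c) and dKO (d) replicates 1 to 3, with the rounded FPKM in each cell. Fshr and Ptgs2 are lighter in the dKO columns than in the control columns. Among the markers Foxl2, Amhr2 and Slc38a3 stay below 1 FPKM, while Gata4, Wt1, Has2 and Gja1 lie above all their control values in every dKO library.

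Markers of other ovarian cells were mixed. Of 31 markers of theca and stroma, endothelium, blood and immune cells and surface epithelium in the table, 20 were below 1 FPKM in every library. So were 11153 of all 24028 genes. Of the 6 tested, 2 rose (Nr2f2 and Krt8) and 1 fell (Pecam1), with a median log2 change of 0.30. Both that rose passed the filter through their dKO libraries alone. Of all tested genes 14.0% rose and 7.04% fell. With no filter 6 of 28 were called higher and 0 lower, against 9.88% and 2.68% of 20310 genes. Of these 6, 5 were among the 12 theca and stroma markers. Nr2f2, a nuclear receptor of theca and stroma and of many embryonic tissues, stood at 0.545, 0.506 and 0.511 FPKM in the controls, against 6.84, 3.57 and 3.49 FPKM for dKO (log2 change 1.84 ± 0.25 (SE); limma adjusted p = 0.000969). The keratin gene Krt8 went from 0.0820 ± 0.0740 to 4.06 ± 2.07 FPKM and the endothelial adhesion gene Pecam1 from 25.2 ± 4.11 to 14.9 ± 2.57 FPKM (SD, n = 3). Upk3b, a surface epithelium marker like Krt8, went down, from 2.86, 0.913 and 1.51 FPKM in the controls to 0.372, 0.262 and 0.146 FPKM for dKO. It was tested with no filter alone and was not called (limma adjusted p = 0.0555). The other 4 surface epithelium markers were below 1 FPKM in every library. Pecam1 lost its call with no filter (limma adjusted p = 0.0505), with array weights (0.0766) and without control replicate 1 (0.118) or 3 (0.130) or dKO replicate 1 (0.0622).

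The summed level of the 12 theca and stroma markers was 2.37 to 3.45 FPKM in controls and 8.13 to 11.7 FPKM in dKO libraries. Dcn, the most abundant stromal proteoglycan, averaged 0.207 ± 0.0682 and 1.41 ± 0.400 FPKM (SD, n = 3) and was not tested with the filter. Its groups did not overlap, and with no filter Dcn was called higher (log2 change 0.99, limma adjusted p = 0.0142). Ptch1 averaged 1.25 and 1.30 FPKM, the macrophage gene Cd68 averaged 1.22 and 1.75 FPKM, and Lyz2 reached 2.85 FPKM in dKO replicate 3 alone. Endothelial markers summed to 24.2 to 33.1 FPKM in controls and 19.5 to 26.6 FPKM in dKO libraries, and Pecam1 made up most of both. Unlike Pecam1, Kdr, Tek and Cldn5 had every dKO value above every control value, as had 22.3% of 20310 genes with no filter. With no filter none of them was called (limma adjusted p = 0.0879, 0.236 and 0.151), and Cdh5 and Emcn were at or near 0. Blood and immune markers summed to 0.568 to 2.15 and 2.01 to 3.65 FPKM, and epithelial markers to 1.11 to 3.01 and 2.11 to 5.84 FPKM. Upk3b made up most of the epithelial sums in controls and Krt8 in dKO libraries. The part of these cells, and of granulosa cells, in the changes of the 10 genes was not tested. In pooled RNA fewer cells of a type and less RNA per cell cannot be told apart. Nr2f2 and Krt8 exons overlap other annotated genes on the other strand.

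Partners of the 10 genes in 8 pathways, 87 genes in all, were then read in the same fit. Of 53 tested 8 rose and 6 fell, with a median log2 change of 0.16. Over all tested genes 14.0% rose and 7.04% fell. Of the 8 that rose 3 (Pla2g4a, Id1 and F2r) passed the filter through their dKO libraries alone. With no filter 9 rose and 3 fell of 87, against 9.88% and 2.68% of 20310 genes. At an unadjusted p under 0.05, 17 of the 53 were higher and 9 lower, against 2248 and 1771 of all 11334 genes tested (limma).

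The prostaglandin list held the partner of Ptgs2 with the largest rise. Pla2g4a encodes the cytosolic phospholipase that frees arachidonic acid, the substrate of cyclooxygenase. It stood at 0.0974, 0.0404 and 0.0955 FPKM in the controls, against 2.65, 1.89 and 1.72 FPKM for dKO (log2 change 1.51 ± 0.17 (SE); limma adjusted p = 0.000455). As with Ptgs2, dKO replicate 1 held the highest value and replicate 3 the lowest, a match over 3 libraries that was not tested. Ptges3, a cochaperone also described as a prostaglandin E synthase, rose from 22.8 ± 3.44 to 39.5 ± 9.15 FPKM, and Ptgis, the prostacyclin synthase, fell from 9.68 ± 0.771 to 3.29 ± 1.01 FPKM (SD, n = 3). Of 13 genes on this list 7 could be tested: these 2 rose and 1 fell, with a median log2 change of 0.39. Ptges3 lost its call with no filter (limma adjusted p = 0.0637) and when any 1 library but dKO replicate 3 was removed (0.0513 to 0.131). Ptgis exons overlap an annotated transcript on the other strand.

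Of 10 genes that carry or answer the signal of anti-Müllerian hormone and the related BMPs, 7 could be tested: 3 rose and 0 fell (limma; 5 and 0 at an unadjusted p under 0.05), with a median log2 change of 0.92. The type I receptor gene Acvr1 stood at 5.19, 7.78 and 6.35 FPKM in the controls, against 17.4, 23.5 and 18.4 FPKM for dKO (log2 change 1.48 ± 0.21 (SE); limma adjusted p = 0.00116). Id3, an early target of BMP signals that blocks bHLH factors, rose from 2.31 ± 0.886 to 11.98 ± 7.52 FPKM (SD, n = 3), and the third was Id1, named after its values were seen. The ligand Amh itself and its own receptor Amhr2 were low in both groups, as given above.

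The activin and inhibin list held no call: of 12 genes 8 could be tested, with 0 called higher and 0 lower (limma; 2 and 1 at an unadjusted p under 0.05), with a median log2 change of 0.24. The activin receptor gene Acvr1b averaged 26.2 ± 0.700 and 37.7 ± 15.3 FPKM and the signal carrier Smad3 57.9 ± 4.65 and 42.5 ± 8.77 FPKM (SD, n = 3). Smad7, also on this list and named after its values were seen, did not pass the filter. It stood at 0.0987, 0.0588 and 0.0149 FPKM in the controls, against 3.95, 2.45 and 0.666 FPKM for dKO, with no overlap. With no filter it was not called (log2 change 1.53, limma adjusted p = 0.0593). Acvr2b, a type II receptor of activin named after its values were seen, stood at 0.924, 1.28 and 1.07 FPKM in the controls, against 1.75, 3.84 and 2.34 FPKM for dKO, with no overlap. It just missed the threshold (log2 change 0.76 ± 0.24 (SE); limma adjusted p = 0.0506) and was called higher with the replicate number as a block (0.0321), with median-ratio scaling (0.0466), a pseudocount of 0.5 (0.0497), no variance trend (0.0474) or array weights (0.0363), and without dKO replicate 1 (0.0280).

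Of 13 genes of the gonadotropin and cAMP pathway 9 could be tested: 1 rose and 2 fell, with a median log2 change of -0.07. Gpr3, the receptor that keeps cAMP high in the arrested oocyte, fell from 53.3 ± 6.34 to 29.5 ± 10.96 FPKM, and Pde3a, the oocyte phosphodiesterase that breaks cAMP down, fell from 88.6 ± 4.08 to 58.5 ± 12.7 FPKM. Prkar2b, a regulatory subunit of protein kinase A that granulosa cells raise under follicle stimulating hormone, rose from 8.28 ± 0.277 to 18.3 ± 8.23 FPKM (SD, n = 3). With no filter none of the 3 was called (limma adjusted p = 0.0832, 0.0841 and 0.0966). Pde3a was also not called with a filter of 5 FPKM (0.0549), quantile normalization (0.0978) or no variance trend (0.0666), and Prkar2b with that filter (0.0501). On removal of 1 library Gpr3 lost its call except without dKO replicate 2, Pde3a except without dKO replicate 2 or 3 and Prkar2b except without dKO replicate 3 (highest adjusted p 0.119, 0.159 and 0.123). Gpr3 and Pde3a exons overlap other annotated genes on the other strand.

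Of 12 steroid synthesis genes 6 could be tested: 1 rose and 1 fell, with a median log2 change of 0.34. Cyp1b1, an oxidase of estrogens, rose from 1.60 ± 0.159 to 4.62 ± 0.888 FPKM, and Scarb1, the receptor that takes up cholesterol from lipoproteins, fell from 10.1 ± 0.841 to 4.12 ± 1.49 FPKM (SD, n = 3). The call on Scarb1 was lost without control replicate 2 (adjusted p = 0.0595, limma). Of 11 nuclear receptors and cofactors 5 were tested and 0 were called (limma; 1 higher and 0 lower at an unadjusted p under 0.05), with a median log2 change of 0.08. The coactivators Ncoa2 and Ncoa3 averaged 35.1 and 46.8 FPKM in controls and 41.9 and 39.2 FPKM in dKO libraries.

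Kit, the oocyte receptor for the product of Kitl, fell from 99.8, 99.3 and 102 FPKM in controls to 55.2, 71.4 and 52.8 FPKM in dKO libraries (log2 change -0.75 ± 0.16 (SE); limma adjusted p = 0.0106). Without control replicate 1, 2 or 3 its adjusted p was 0.0515, 0.0523 and 0.0570. It was the 1 called gene of the 8 on the KIT list, all tested, which had a median log2 change of -0.07. Of 8 plasminogen genes, the system that Serpine2 restrains, 3 were tested, with a median log2 change of -0.79. The thrombin receptor gene F2r rose from 0.361 ± 0.0468 to 1.80 ± 0.475 FPKM. Plat, the tissue plasminogen activator that oocytes store as mRNA, fell from 533 ± 20.3 to 317 ± 106 FPKM (SD, n = 3). Plat lost its call with no filter, with a filter of 5 FPKM, with quantile normalization and when any 1 library but dKO replicate 2 was removed (0.0744 to 0.134, limma adjusted p), and F2r with quantile normalization (0.0809).

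**Figure D4:**
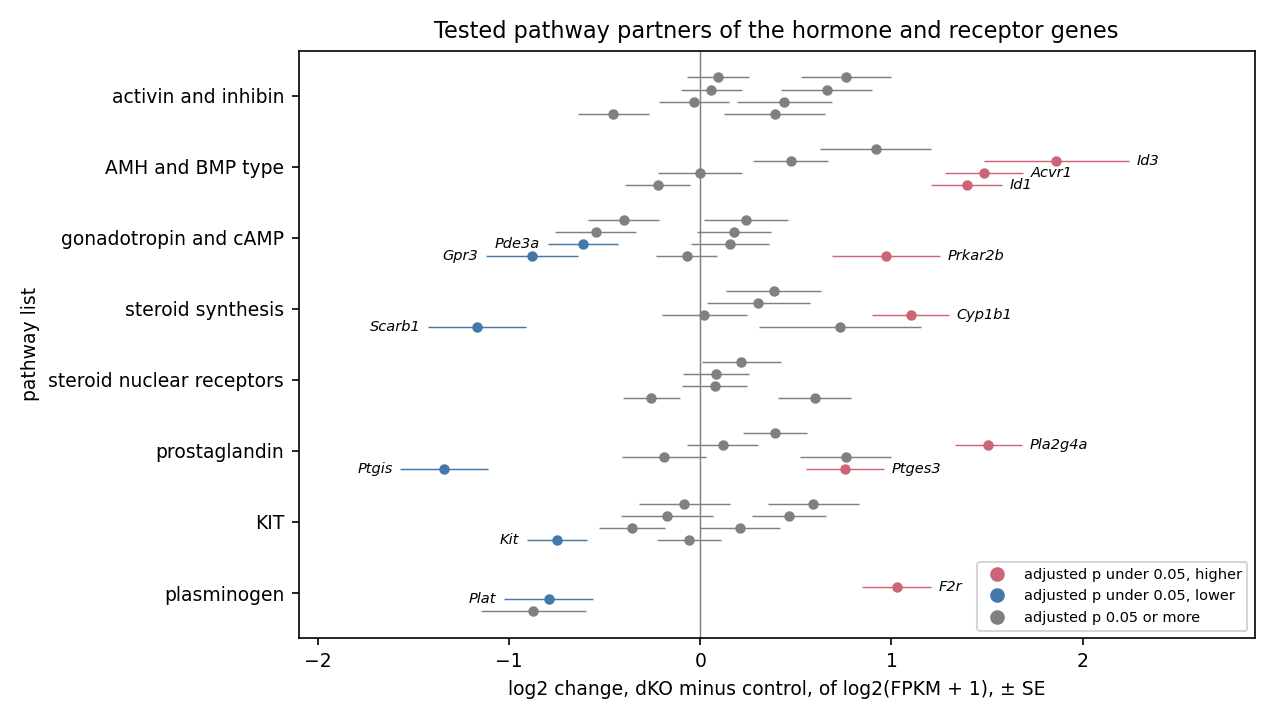
Log2 change, dKO minus control, with its SE for each tested partner of the 10 genes, by pathway list, in red or blue where the adjusted p was under 0.05. Pla2g4a lies at 1.51, Ptgis at -1.34 and Kit at -0.75, and the activin and inhibin list and the nuclear receptor list hold grey symbols alone.

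Chromosomal neighbours were read by name from the RefSeq annotation of GRCm38.p6, taking the 2 nearest protein-coding genes of the table on each side of each of the 10 genes, a choice made after the data were seen. Of these 40 neighbours 22 could be tested: 4 rose and 1 fell, with a median log2 change of 0.04. Over all tested genes 14.0% rose and 7.04% fell. Of the 4 that rose, Pla2g4a and Dusp6 passed the filter through their dKO libraries alone, so they had to differ to be counted. Pla2g4a is the direct neighbour of Ptgs2 on one side, and Pdc, the direct neighbour on the other side, was at 0 in all 6 libraries. Lhcgr, which encodes the receptor for luteinizing hormone and lies next to Fshr, stood at 0.0137, 0.0152 and 0.0940 FPKM in the controls, against 0.393, 0.119 and 0.329 FPKM for dKO. All its values lay below 1 FPKM, and with no filter it was not called (limma adjusted p = 0.0914). Of the neighbours tested with no filter alone, Adcyap1 near Fshr and Obsl1 next to Inha were called, both higher. Their log2 changes were 0.62 and 0.57 (limma adjusted p = 0.00919 and 0.0214), and both stayed below 1 FPKM in every library.

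Gli3, a transcription factor of the Hedgehog pathway next to Inhba, stood at 6.57, 7.72 and 21.6 FPKM in the controls, against 38.0, 49.9 and 44.6 FPKM for dKO (log2 change 1.97 ± 0.37 (SE); limma adjusted p = 0.00581). Control replicate 3 was the highest control for Gli3 and also for Inhba. Dusp6, a phosphatase of ERK that lies near Kitl, stood at 0.0992, 0.0961 and 0.341 FPKM in the controls, against 3.10, 3.19 and 1.03 FPKM for dKO (log2 change 1.48 ± 0.28 (SE); limma adjusted p = 0.00664). For Dusp6 as for Kitl, dKO replicate 3 was the lowest dKO library. With 3 libraries per group such matches carry little weight, and whether neighbours vary together was not tested. The other neighbours called were Sgpp1 near Esr2, with a log2 change of 1.40, and Fam124b next to Serpine2, with one of -1.04. Sgpp1 lost its call with no filter (limma adjusted p = 0.107), with quantile normalization (0.0804) and without control replicate 2 (0.117) or 3 (0.114) or dKO replicate 1 (0.0700) or 2 (0.0520). Fam124b lost its call without control replicate 1 (0.0584) or 3 (0.0507).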

How the data were processed

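The authors deposited 1 table of FPKM for the 6 libraries. The submitters' processing notes name Cufflinks 2.0.2, TopHat2 2.0.11 and mm9, without roles. The annotation and any use of strand were not given in the sources used here. Per the labels' protocols, an Ovation v2 kit amplified the RNA. Of 24525 rows 497 were exact repeats and were removed.

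Genes at 1 FPKM or more in at least 3 libraries (11334) were fitted as log2(FPKM + 1) with limma 3.58.1 in R 4.3.3 (lmFit, eBayes with trend, two-sided, unpaired). The p-values were Benjamini-Hochberg adjusted over all of them, with a threshold of 0.05. Fold changes on this scale understate those of low genes. The code was tested on simulated data.

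Per the labels, a replicate number marks a sequencing lane that 1 library of each group shared. Their deviations from the group means correlated at 0.147, 0.107 and 0.0637, and a fit with the number as a block was an alternative. Index sequence and group cannot be told apart. Replicates were separate females.

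The genes, lists and tests were chosen with earlier results of these data known. The genes named are the 10 themselves, up to 2 rises and 2 falls past the threshold of each list or else its 2 highest, and the 3 highest in dKO libraries of the granulosa, expansion and theca lists. Other genes were named after their values were seen. Exon overlaps are from GENCODE M21, and 0 of the 10 genes had any. Relative depth is the commonest ratio between libraries among values under 0.3 FPKM. The alternatives were other pseudocounts, filters, scalings, variance models, the block, and leaving out each library in turn.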

Additional observations from a re-analysis of the deposited data

How the results depend on the processing

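Fshr and Ptgs2 were called higher under all 15 alternatives. With the replicate number as a block no call on the 10 genes changed (4 rose, 0 fell), and 1681 genes rose and 887 fell in all. Of the other listed genes tested, the block gained calls for Acvr2b (limma adjusted p = 0.0321) and Smad5 (0.0322), higher, and for Lrp1 (0.0298) and Gja4 (0.0358), lower, and lost that for Bmp15 (0.0740), which gave 10 rises and 7 falls among the pathway partners. On removal of 1 library 2 to 5 of the 10 genes rose and 0 fell. With a pseudocount of 0.1, median-ratio scaling, quantile normalization or no variance trend 1 fell (Cyp19a1). Over all genes the removals gave 1087 to 1869 rises and 231 to 1465 falls, median-ratio scaling 1520 and 1276, quantile normalization 1191 and 1073 (52.6% rising, against 66.5%), no filter 2006 and 545 (78.6%) and a filter of 5 FPKM 655 and 559 (54.0%). The median log2 change of all genes was -0.02, and -0.10 with that filter, -0.09 with median-ratio scaling and -0.07 with quantile normalization. Of the pathway partners 6 to 10 rose and 1 to 7 fell on removal of 1 library, 3 rose with a filter of 5 FPKM and 3 fell with no filter. Of the granulosa and cumulus markers 5 rose with no filter, 1 with a filter of 5 FPKM, where fewer genes are tested, and 1 with quantile normalization. Of the other ovarian markers 6 rose and 0 fell with no filter, 0 rose with a filter of 5 FPKM, 0 fell with array weights and 0 to 1 fell on removal of 1 library. Among genes not called, the sign turned with quantile normalization for Inha (-0.055), Hsd3b1 (-0.057), Rgs2 (0.12), Ptch1 (-0.39) and Cd68 (-0.20), and on removal of 1 library Ptch1 ranged from -0.079 to 0.32 and Cd68 from -0.18 to 0.58. Except where stated, the cause was not tested. Low values are least precise in dKO replicate 1, which had the lowest relative depth.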
